A study of Homo sapiens with 33 samples.

Results

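MET and RON, the receptor encoded by MST1R, were described together with the genes that switch their ligands on and off in 3 established lines of head and neck squamous cell carcinoma (HNSCC), named SCC1, SCC6 and SCC25. The set has 8 members of the 56470 gene symbols in the count table, chosen by symbol as genes of 1 known pathway. They are the receptors MET and MST1R, the ligands HGF and MST1, the proteases ST14 and HGFAC, and the protease inhibitors SPINT1 and SPINT2. All 8 symbols were found in the table.

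The table holds 33 bulk RNA-seq libraries of polyA RNA. Each line was cultured with PBS (the untreated controls, days 0 to 5) or with cetuximab at 100 nM (days 1 to 5), renewed daily. Cetuximab is a therapeutic antibody against EGFR. Every library is 1 line, treatment and day, so the 5 libraries of days 1 to 5 stand in for replicates of a treatment and p-values measure the spread between days, which includes any change over time. For SCC6 with cetuximab, 2 libraries are labelled day 2 and none day 1, and the first and second of these columns are named 2a and 2b. The sources differ on the medium. By the labels SCC1 (UM-SCC-1) and SCC25 were grown with hydrocortisone and SCC6 (UM-SCC-6) with non-essential amino acids, in which case line and medium cannot be told apart, whereas the study's methods give 1 medium for the 3 lines.

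MET binds hepatocyte growth factor (HGF), which is made mainly by fibroblasts and other stromal cells, and RON binds macrophage-stimulating protein (MSP, encoded by MST1), which is made mainly by the liver. Both ligands are secreted as inactive single chains. Serine proteases such as matriptase (ST14), which sits on the epithelial cell surface, and HGF activator (HGFAC), a plasma protein, cut them into the active form. Hepatocyte growth factor activator inhibitors 1 and 2 (SPINT1 and SPINT2) are membrane-bound Kunitz-type inhibitors of these proteases. MET and RON both signal through pathways that EGFR also uses.

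The sequences just before the start sites of both receptor genes are shown because MST1R was lower with cetuximab in all 3 lines and MET was not. Both are the 250 bases upstream of the start on the gene's own strand, 5′ to 3′, from RefSeq on GRCh38.p14, with motif matches in capitals. The motifs searched, on both strands, were the GC box (GGGCGG), an AP-1 motif (TGANTCA), an ETS core (CCGGAA) and an E-box (CACGTG).
MST1R, chr3:49903874-49904123, minus strand: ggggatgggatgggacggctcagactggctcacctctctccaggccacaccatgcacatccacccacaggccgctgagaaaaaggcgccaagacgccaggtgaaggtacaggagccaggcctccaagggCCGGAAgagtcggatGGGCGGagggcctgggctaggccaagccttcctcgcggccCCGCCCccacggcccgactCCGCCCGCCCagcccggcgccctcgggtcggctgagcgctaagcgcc
MET, chr7:116671946-116672195, plus strand: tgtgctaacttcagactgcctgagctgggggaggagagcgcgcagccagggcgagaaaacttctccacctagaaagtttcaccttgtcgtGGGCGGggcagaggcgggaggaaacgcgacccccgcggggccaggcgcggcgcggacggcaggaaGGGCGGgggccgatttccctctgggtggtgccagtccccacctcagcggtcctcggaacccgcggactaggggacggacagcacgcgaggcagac
The MST1R window held 4 GC boxes, 2 of which overlap, and 1 ETS core, and the MET window held 2 GC boxes and no other motif searched. Of 35116 promoter windows of this length, 42.6% held a GC box, 14.5% an ETS core, 6.57% the AP-1 motif and 6.34% the E-box. In all, 6 of the 8 members had a window, and those of HGF and HGFAC held none of the 4 motifs. The MST1 window held 2 GC boxes and 1 ETS core. SPINT1 had 2 windows, of which 1 held 3 GC boxes and the other held none of the 4 motifs. A link between the motifs and the change with cetuximab was not tested. ST14 and SPINT2 had no entry.

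Total estimated counts per library ranged from 28508758 to 80727478, with a median of 43002133. The cetuximab libraries of SCC6 on days 4 and 5 were the deepest. Levels are given as CPM, the estimated count scaled to library size with TMM factors over all libraries. The libraries were read on 5 flow cells, lettered A to E here, which are partly confounded with treatment and with line. In SCC1, all 5 cetuximab libraries were on flow cell C with 1 PBS library, and the other 5 PBS libraries were on B. In SCC25, all PBS libraries and cetuximab of days 1 and 2 were on A, and cetuximab of days 3 to 5 on B. In SCC6, 4 PBS and 3 cetuximab libraries shared flow cell D. PBS of days 0 and 1 was on C, and cetuximab of days 4 and 5 was on E, which held no other library. All 6 squamous epithelial markers (KRT5, KRT14, TP63, CDH1, DSG3 and EPCAM) had a mean over 1 CPM in every line and treatment. KRT5, KRT14 and DSG3 were low in SCC6, with PBS means of 2.38, 3.95 and 2.87 CPM. Their PBS means were 548, 234 and 47.1 CPM in SCC1 and 5360, 3380 and 235 CPM in SCC25. In SCC6 CDH1 (757 CPM) and EPCAM (299 CPM) were the highest of the 6 with PBS. Markers of leukocytes summed to at most 7.22 CPM and those of endothelial cells to at most 2.78 CPM in any library of days 1 to 5. For ST14 and SPINT1, cetuximab-treated SCC25 of day 3 stood apart from its group, and their results are also given without it.

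Without cetuximab, MET, the matriptase gene and both inhibitor genes had the highest levels per length in every line, MST1R was lower, MST1 lower still, and HGF was near or below the limit of detection. Levels between genes are compared as CPM per kb of exon (GENCODE on GRCh37), as mean ± SD over the 5 PBS libraries of days 1 to 5. In SCC1 the order was MET (74.2 ± 6.05), ST14 (53.3 ± 5.47), SPINT1 (46.5 ± 5.17), SPINT2 (45.6 ± 4.86), MST1R (11.96 ± 1.86) and MST1 (0.256 ± 0.0282). In SCC6 SPINT2 was first (97.8 ± 12.2), followed by SPINT1 (49.9 ± 9.26), MET (47.5 ± 6.67), ST14 (40.0 ± 8.89), MST1R (4.89 ± 2.42) and MST1 (0.120 ± 0.0471). In SCC25 it was SPINT2 (48.6 ± 3.72), MET (34.3 ± 1.83), ST14 (33.7 ± 5.00), SPINT1 (27.1 ± 1.08), MST1R (7.62 ± 1.01) and MST1 (0.289 ± 0.0535). The neighbours SPINT1 and SPINT2 in SCC1, SPINT1 and MET in SCC6, and MET and ST14 in SCC25 differed by less than their SD. With the length of the longest transcript in place of all exons, SPINT2 in SCC1 was 60.9 CPM per kb and ST14 66.4, and 22 of 48 such levels moved by more than their SD. The plot of untreated levels per length shows MET, ST14, SPINT1 and SPINT2 together at the top and the ligand gene MST1 far below them.

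**Figure D1:**
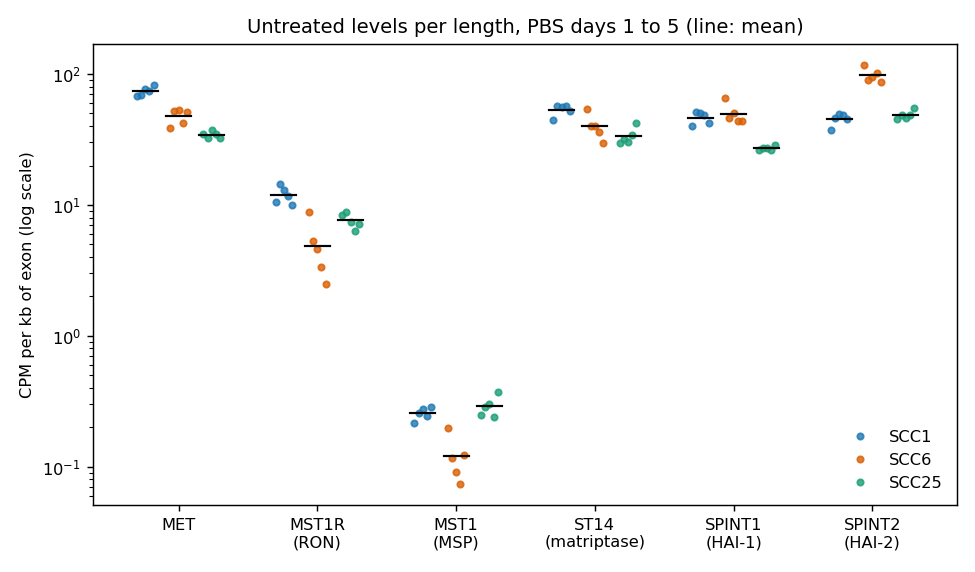
Levels of 6 members in PBS-treated SCC1, SCC6 and SCC25 (x axis) in CPM per kb of exon (y axis, log scale), 1 point per library of days 1 to 5 and a line at the mean. MET, ST14, SPINT1 and SPINT2 have means from 27.1 (SPINT1 in SCC25) to 97.8 (SPINT2 in SCC6), above MST1R (4.89 to 11.96) and MST1 (0.120 to 0.289).

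The untreated lines differed in most members. All PBS libraries of SCC25 were on flow cell A and none of the other lines were, so line and flow cell cannot be told apart there. SCC1 and SCC6 shared only flow cell C, with PBS of day 5 in SCC1 and of days 0 and 1 in SCC6. No flow cell term was fitted for these comparisons. Of the 6 members that passed the filter on low counts, 5 were called between SCC1 and SCC6 (edgeR's quasi-likelihood test, Benjamini-Hochberg adjusted p under 0.05), where 69% of all genes tested were called. Between SCC1 and SCC25 4 of 6 were called against 74.1% of all genes, and between SCC6 and SCC25 4 of 6 against 72%, so the members' shares were near the background. MET was highest in SCC1, by a log2 difference of 0.62 over SCC6 (SE 0.094, edgeR adjusted p = 7.29e-05) and of 1.11 over SCC25 (SE 0.056, edgeR adjusted p = 2.17e-10). MST1R was also highest in SCC1, by 1.25 over SCC6 (SE 0.29, edgeR adjusted p = 0.00221) and 0.65 over SCC25 (SE 0.113, edgeR adjusted p = 0.000156), while SCC6 and SCC25 were not called apart (log2 difference -0.60, SE 0.283, edgeR adjusted p = 0.0743). With day as a block, that last difference was called (-0.73, edgeR adjusted p = 0.00888). The MST1R difference between SCC1 and SCC6 grew over the days. With PBS the levels were 50.6 and 52.5 CPM on day 0 and 52.1 and 13.04 CPM on day 5, in SCC1 and SCC6. SPINT2 was highest in SCC6, by a log2 difference of 1.04 over SCC25 (SE 0.098, edgeR adjusted p = 9.33e-07), and was lower in SCC1 than in SCC6 by 1.13 (log2 difference -1.13, SE 0.106, edgeR adjusted p = 1.05e-06). SPINT1 was lowest in SCC25, with a log2 difference of 0.78 for SCC1 (SE 0.07, edgeR adjusted p = 1.19e-07) and of 0.91 for SCC6 (SE 0.117, edgeR adjusted p = 1.49e-05). ST14 was higher in SCC1 than in SCC6 (log2 difference 0.38, SE 0.145, edgeR adjusted p = 0.0326) and SCC25 (0.66, SE 0.098, edgeR adjusted p = 3.72e-05). The first of these calls was lost without PBS of day 2, 3 or 4 in SCC1 or of day 4 in SCC6, with an adjusted p of up to 0.0642.

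To ask how EGFR blockade changed the set, the cetuximab libraries of each line were set against its PBS libraries of days 1 to 5. MST1R fell in all 3 lines. MET rose in SCC6, fell in SCC25 and was not called in SCC1. ST14 and SPINT1 were called in no line, while SPINT2 fell and MST1 rose in SCC1. In SCC1 3 of the 6 members tested were called, 1 higher and 2 lower, where 44.5% of all genes were called (22.5% higher and 22% lower). In SCC6 2 of 6 were called, 1 in each direction, with a background of 30.1% (15.5% higher and 14.5% lower). In SCC25 2 of 6 were called, both lower, with a background of 18.2% (8.72% higher and 9.47% lower, or 1665 and 1809 genes, against 2123 higher and 3523 lower after a GC trend was taken out). The median log2 fold change of the members tested was -0.042 in SCC1, 0.19 in SCC6 and 0.074 in SCC25, where that of all genes was 0.021, 0.004 and 0.006. HGF and HGFAC did not pass the filter in any of these comparisons. The plot of fold changes shows MST1R to the left of 0 in each line, whereas the lines lie on different sides for MET and SPINT2.

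**Figure D2:**
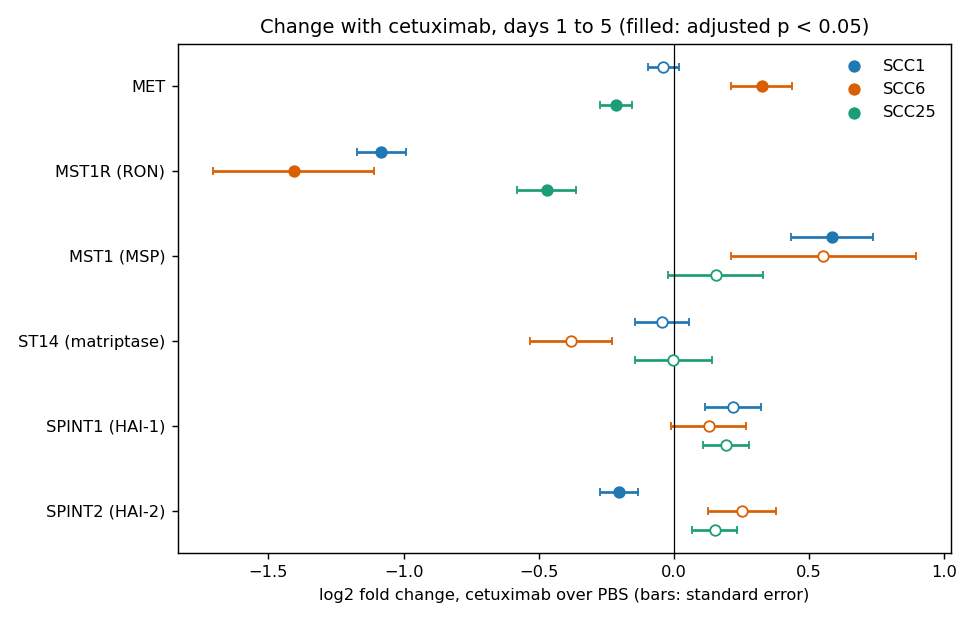
Log2 fold change of cetuximab over PBS (x axis; bars are the standard error of the edgeR fit) for 6 members (y axis) in SCC1, SCC6 and SCC25, filled where the edgeR adjusted p is under 0.05. MST1R is filled and negative in all 3 lines (-1.08, -1.41 and -0.47), and MET is filled on opposite sides in SCC6 (0.32) and SCC25 (-0.22).

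RON, encoded by MST1R (GRCh37, chr3:49924435-49941306, minus strand), is the receptor for MSP. Its span overlaps 2 long non-coding RNAs on the other strand. The library kit marks strand, but the setting used in counting is not given, so a share of its reads is uncertain. In SCC1 its levels with PBS on days 1 to 5 were 55.7, 76.4, 68.2, 61.6 and 52.1 CPM, and with cetuximab 30.8, 29.2, 29.8, 28.7 and 28.9 CPM. All cetuximab libraries were below all PBS libraries, and they varied little between days. MST1R fell to 0.472 of its PBS level (log2 fold change -1.08, SE 0.09, edgeR adjusted p = 1.76e-06). The PBS library that shared flow cell C with the cetuximab libraries, at 52.1 CPM, was also above all of them, and the fit with a flow cell term gave a log2 fold change of -0.81 (SE 0.12, edgeR adjusted p = 0.000913). The summed squamous epithelial markers were higher where MST1R was lower in SCC1, at 979 to 1931 CPM with PBS and 4462 to 5504 CPM with cetuximab. Of the 6 markers 5 rose and EPCAM fell, from a mean of 260 to 156 CPM, and KRT5, with a mean of 548 CPM with PBS and 3260 CPM with cetuximab, made up most of the rise. The other lines did not share this pattern. In SCC6 the summed markers had a median of 1137 CPM with PBS and 900.7 CPM with cetuximab. In SCC25 the sums overlapped, at 8443 to 12110 CPM with PBS and 10130 to 11590 CPM with cetuximab. The part of these markers in the result was not tested.

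In SCC6, MST1R fell with time in the PBS cultures, from 46.0 CPM on day 1 to 27.8, 24.0, 17.5 and 13.04 CPM on days 2 to 5. With cetuximab it was 13.1 (2a) and 10.2 (2b), then 7.49, 9.92 and 8.42 CPM on days 3 to 5. The highest cetuximab library was level with the lowest PBS library, so the groups touched only there. The fall (log2 fold change -1.41, SE 0.298, edgeR adjusted p = 0.00459) was called without any 1 of the 10 libraries (-1.58 to -1.09). Within flow cell D it was 20.6 CPM in 4 PBS libraries (13.04 to 27.8) and 10.3 CPM in 3 cetuximab libraries (7.49 to 13.1). The fit with the flow cell as a covariate gave -1.02 (SE 0.274, edgeR adjusted p = 0.0191).

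In SCC25, MST1R was 44.3, 46.3, 38.8, 33.2 and 37.5 CPM with PBS on days 1 to 5. With cetuximab it was 32.3, 32.8, 23.7, 26.6 and 29.4 CPM. The groups did not overlap, although the highest cetuximab library (32.8) and the lowest PBS library (33.2) were close. MST1R fell by 0.47 on the log2 scale (SE 0.109, edgeR adjusted p = 0.0117). With the flow cell as a covariate it was -0.30 and no longer called (SE 0.122, edgeR adjusted p = 0.164), and on flow cell A the 2 cetuximab libraries (32.3 and 32.8) lay just below the lowest of 5 PBS libraries. Day by day, cetuximab was below PBS in every line, with log2 ratios of -1.39 to -0.85 in SCC1, -1.80 to -0.63 in SCC6 (2a and 2b against the mean of PBS days 1 and 2) and -0.71 to -0.32 in SCC25. PBS of day 1 in SCC6 (46.0 CPM) was above that of day 2 (27.8 CPM), so 2a and 2b fell by less against PBS of their labelled day alone. The fall with cetuximab was larger in SCC6 than in SCC25 (difference of log2 fold changes -0.93, SE 0.289, edgeR adjusted p = 0.0256).

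MET, the HGF receptor (GRCh37, chr7:116312250-116438431, plus strand), was the member with the highest level in SCC1, where it was not called with cetuximab. With PBS it was 492, 499, 554, 537 and 599 CPM on days 1 to 5. With cetuximab it was 488, 496, 545, 539 and 523 CPM. The groups overlapped, and the log2 fold change was -0.04 (SE 0.058, edgeR adjusted p = 0.62).

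In SCC6, MET was 279.5, 379.5, 385, 303 and 367 CPM with PBS on days 1 to 5. With cetuximab it was 385 (2a), 457 (2b), 498, 401 and 432 CPM. All cetuximab libraries were above all PBS libraries, although 2a (385.2 CPM) exceeded PBS of day 3 (384.6 CPM) by less than 1 CPM. MET rose by a log2 fold change of 0.32, close to the threshold (SE 0.113, edgeR adjusted p = 0.0474). The call was lost when any 1 of the libraries other than 2a was left out (log2 fold change 0.26 to 0.37, adjusted p up to 0.122), and day as a block kept it with 2a as day 1 (0.33, edgeR adjusted p = 0.0247) and not with 2b (0.33, edgeR adjusted p = 0.0613). Within flow cell D it was 359 CPM in 4 PBS libraries (303 to 385) and 447 CPM in 3 cetuximab libraries (385 to 498).

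In SCC25, MET moved the other way. It was 249.8, 236, 268, 250.3 and 235 CPM with PBS on days 1 to 5, and 202, 198, 237, 221 and 213 CPM with cetuximab. The cetuximab library of day 3 was above PBS of days 2 and 5, and otherwise the cetuximab libraries were lower. MET fell by 0.22 on the log2 scale (SE 0.058, edgeR adjusted p = 0.0225), with cetuximab lower on 5 of 5 days. With the flow cell as a covariate it was -0.31 (SE 0.066, edgeR adjusted p = 0.017). The call was lost without PBS of day 1 or 3 or cetuximab of day 1, 2 or 5, with log2 fold changes of -0.17 to -0.24 over all libraries left out in turn and an adjusted p of up to 0.0902.

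The effect of cetuximab differed between the lines for 3 of the 6 members tested, MET, MST1R and SPINT2, where 26% of all genes were called by the line-by-treatment terms. For MET (edgeR adjusted p = 0.00183) the log2 fold change in SCC6 exceeded that in SCC25 by 0.55 (SE 0.117, edgeR adjusted p = 0.00124) and that in SCC1 by 0.39 (SE 0.117, edgeR adjusted p = 0.0171). The MET call held without any 1 of the 30 libraries and with a flow cell term (edgeR adjusted p = 0.00092). For MST1R the call was marginal (edgeR adjusted p = 0.0426), as leaving out any of 21 of the 30 libraries ended it (adjusted p up to 0.0836), and so did the flow cell as a covariate (edgeR adjusted p = 0.166). ST14, SPINT1 and MST1 were not called (edgeR adjusted p = 0.303, 0.953 and 0.498).

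The balance of the receptors was followed in each library as the log2 ratio of MST1R to MET CPM, which does not depend on library scaling. The ratio was -3.10 ± 0.293 with PBS and -4.14 ± 0.0975 with cetuximab in SCC1 (mean ± SD, 5 libraries each), a difference of -1.03 (two-sided exact permutation test, p adjusted over 9 ratios = 0.0143). In SCC6 it was -3.86 ± 0.804 and -5.49 ± 0.435, a difference of -1.63 (exact permutation test, adjusted p = 0.0143). In SCC25 it was -2.64 ± 0.224 and -2.90 ± 0.301, a difference of -0.26 that did not pass (exact permutation test, adjusted p = 0.175). The smallest p that 5 against 5 libraries can give is 0.00794, and it was reached in SCC1 and SCC6. With day as a block, where 5 pairs cannot go below 0.0625, none of the 3 lines passed, SCC25 included, and each had the same adjusted p of 0.0804 (exact sign-flip test). In SCC6 these pairs set 2a against PBS of day 1, a match that the labels do not give. Without cetuximab of day 3 the difference in SCC25 was -0.15 (exact permutation test, adjusted p = 0.333). The lowest PBS ratio in SCC6, -4.82 on day 5, lay just above the highest cetuximab ratio, -4.88 in 2a. The plot of ratios shows that separation and the overlap in SCC25.

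**Figure D3:**
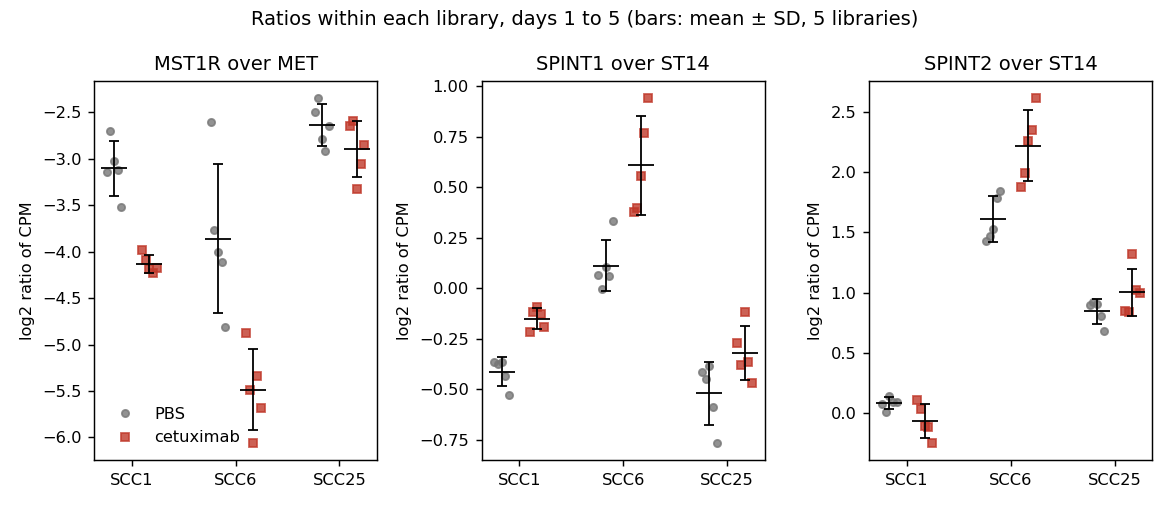
Log2 ratio of the CPM of 2 members within each library (y axis) in SCC1, SCC6 and SCC25 (x axis), 1 point per library of days 1 to 5, with the mean and SD. MST1R over MET is lower with cetuximab in SCC1 (difference -1.03) and SCC6 (-1.63), and SPINT1 over ST14 is higher in both (0.26 and 0.50).

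The ligand genes were barely expressed. HGF (GRCh37, chr7:81328326-81399754, minus strand) had 0 counts in 27 of 33 libraries and at most 2 counts in any, 7 in all. A count of 0 allows up to 0.105 CPM in the shallowest library and 0.0372 CPM in the deepest, for counting error only. A change of HGF with cetuximab was therefore not detectable at this depth. Fibroblasts are a usual source of HGF, and the 7 fibroblast markers summed to 21.0 to 32.8 CPM with PBS and 50.0 to 146 CPM with cetuximab in SCC1, 2.93 to 5.05 and 9.03 to 115 CPM in SCC6, and 145 to 195 and 252 to 405 CPM in SCC25. None of the 7 was at 0 in every library of a group, and COL1A1 had the highest mean in SCC1 and SCC6 and COL1A2 in SCC25. HGF stayed at 0 to 2 counts beside them.

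MST1, the gene for MSP (GRCh37, chr3:49721380-49726934, minus strand), was found in every library at low counts (12 to 101 on days 1 to 5). In SCC1 it was 1.09, 1.31, 1.41, 1.25 and 1.46 CPM with PBS and 2.28, 1.76, 1.75, 2.29 and 1.64 CPM with cetuximab on days 1 to 5. The groups did not overlap, and MST1 rose by a log2 fold change of 0.59 (SE 0.151, edgeR adjusted p = 0.00645). With the flow cell as a covariate it was 0.43 and not called (SE 0.264, edgeR adjusted p = 0.273). In SCC6 (0.55, SE 0.343, edgeR adjusted p = 0.249) and SCC25 (0.15, SE 0.177, edgeR adjusted p = 0.591) the groups overlapped. In SCC6 the cetuximab libraries of days 4 and 5, alone on flow cell E, were at 1.32 and 1.26 CPM and the others at 0.469 to 0.715 CPM. The span of MST1 overlaps a long non-coding RNA on its own strand (504 bases) and APEH on the other strand (25 bases). MST1 counts are also uncertain because MST1L and MST1P2 are copies of the gene: 258 of 6772 stretches of 100 bases in MST1 transcripts (3.81%) also occur in one of them. With the 3 genes summed, the log2 fold change in SCC1 was 0.59 (edgeR adjusted p = 0.00542). Hepatocytes are a usual source of MSP, and of their 3 markers SERPINA1 had a mean of 10.2 CPM with PBS and 4.84 CPM with cetuximab in SCC1, while ALB and APOA1 were near 0.

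ST14 encodes matriptase (GRCh37, chr11:130029677-130080257, plus strand), the epithelial protease that cuts both ligands. In SCC1 it was 182, 235, 230.4, 234 and 215 CPM with PBS and 171, 201, 209, 216 and 258 CPM with cetuximab on days 1 to 5. The groups overlapped, with cetuximab lower on 4 of 5 days (log2 fold change -0.04, SE 0.1, edgeR adjusted p = 0.748). In SCC6 it was 222, 164, 166, 149 and 122 CPM with PBS, and 133 (2a), 139.8 (2b), 117, 145 and 105 CPM with cetuximab. Each cetuximab library was lower than PBS of its day (2a and 2b against the mean of days 1 and 2), but PBS of day 5 lay within the cetuximab range. The log2 fold change of -0.38 was not called (SE 0.151, edgeR adjusted p = 0.0761). It passed without PBS of day 5 (-0.48, edgeR adjusted p = 0.0252), with day as a block and 2b as day 1 (-0.36, edgeR adjusted p = 0.0458), and after a GC trend was taken out of every library (-0.61, edgeR adjusted p = 0.0118). In SCC25 it was 123 to 173.5 CPM with PBS and 144 to 154 CPM with cetuximab, except for 92.1 CPM on day 3. ST14 was level between the groups (log2 fold change -0.002, SE 0.143, edgeR adjusted p = 0.994), and without that library it was 0.12.

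HGFAC, the gene for HGF activator (GRCh37, chr4:3443695-3451213, plus strand), had counts of 0 to 3 in every library of SCC1 and SCC25. In SCC6 it had 4, 1, 0, 1 and 2 counts with PBS on days 1 to 5 and 6 (2a), 7 (2b), 13, 37 and 32 counts with cetuximab. Scaled for depth these were 0 to 0.125 CPM and 0.173 to 0.494 CPM, with no overlap. The cetuximab libraries of days 4 and 5, with the highest counts, were alone on flow cell E. Within flow cell D the levels were 0 to 0.0733 CPM with PBS and 0.173 to 0.338 CPM with cetuximab. PBS of day 0, with 8 counts (0.225 CPM), lay within the cetuximab range. With no filter on low counts, the log2 fold change in SCC6 was 2.63 (SE 0.559, edgeR adjusted p = 0.00257), a value that rests on a total of 8 counts with PBS.

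SPINT1 encodes the inhibitor HAI-1 (GRCh37, chr15:41136216-41150405, plus strand), which binds and blocks matriptase on the cell surface. Its span overlaps a long non-coding RNA on the other strand by 425 bases. In SCC1 it was 141, 181, 179, 173 and 149 CPM with PBS and 147, 185, 195, 198 and 225.5 CPM with cetuximab on days 1 to 5. Cetuximab was higher on 5 of 5 days, but the groups overlapped and the log2 fold change of 0.22 was not called (SE 0.105, edgeR adjusted p = 0.112). It was called without cetuximab of day 1 (0.30, edgeR adjusted p = 0.0106) and with day as a block after removal of the GC trend (0.17, edgeR adjusted p = 0.0185). In SCC25 it was 92.5, 96.1, 95.8, 93.1 and 102 CPM with PBS. With cetuximab it was 119, 118, 84.8, 117 and 111 CPM, above all PBS libraries except on day 3. For SPINT1 this gave a log2 fold change of 0.19 with that library (SE 0.085, edgeR adjusted p = 0.135) and 0.28 without it (edgeR adjusted p = 0.00167). In SCC6 it was 154 to 233 CPM with PBS and 172 to 247 CPM with cetuximab (log2 fold change 0.13, SE 0.14, edgeR adjusted p = 0.527), and its direction flipped when the GC trend was removed (-0.12, edgeR adjusted p = 0.23).

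SPINT2 encodes HAI-2 (GRCh37, chr19:38734675-38783255, plus strand), the related inhibitor. Its span overlaps PPP1R14A and a long non-coding RNA on the opposite strand and another protein-coding gene on its own strand, so its counts are uncertain to the extent that reads were shared. In SCC1 it was 191, 236, 253, 249 and 228.5 CPM with PBS and 185, 205, 193, 199 and 217 CPM with cetuximab on days 1 to 5. Cetuximab was lower on 5 of 5 days, although PBS of day 1 lay within the cetuximab range. SPINT2 fell by 0.20 on the log2 scale (SE 0.071, edgeR adjusted p = 0.0318). The call was lost without cetuximab of day 1, 3 or 4 or PBS of day 2, 3 or 4 (adjusted p up to 0.0778) and with a flow cell term (-0.18, SE 0.124, edgeR adjusted p = 0.326). In SCC6 it was 440.3 to 596 CPM with PBS and 487 to 742 CPM with cetuximab (log2 fold change 0.25, SE 0.125, edgeR adjusted p = 0.15). In SCC25 it was 229 to 277.5 CPM with PBS and 230.3 to 306 CPM with cetuximab (log2 fold change 0.15, SE 0.082, edgeR adjusted p = 0.226), and 0.22 without cetuximab of day 3 (edgeR adjusted p = 0.0395). The change in SCC6 exceeded that in SCC1 by 0.48 (SE 0.141, edgeR adjusted p = 0.0149). The call of SPINT2 between the 3 lines (edgeR adjusted p = 0.0247) was lost without cetuximab of day 1 or PBS of day 3 or 4 in SCC1 or cetuximab of day 4 or 5 in SCC6 (adjusted p up to 0.0573), and with a flow cell term (edgeR adjusted p = 0.27).

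**Figure D4:**
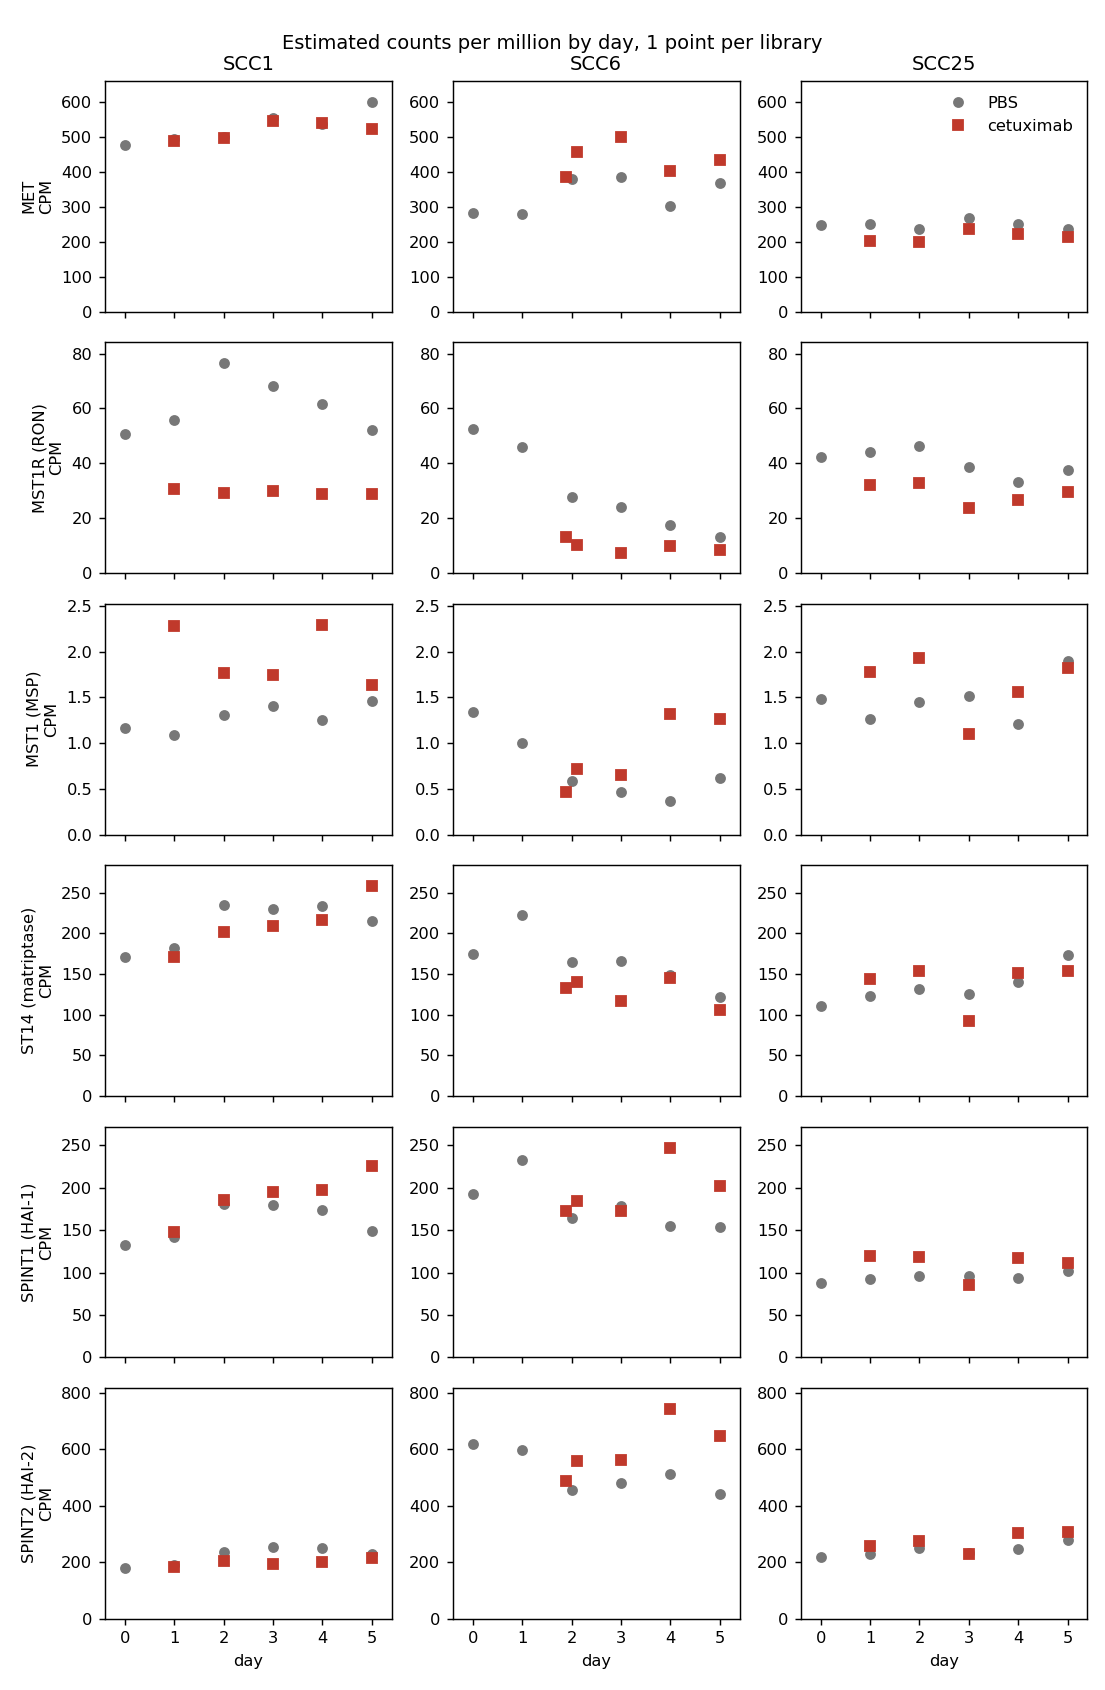
Levels of 6 members in CPM (y axis, from 0) by day (x axis) in SCC1, SCC6 and SCC25, with 1 point per library and PBS and cetuximab marked. The SCC6 libraries 2a and 2b are drawn side by side at day 2. MST1R with PBS falls from 52.5 CPM on day 0 to 13.04 CPM on day 5 in SCC6, and cetuximab of day 3 in SCC25 is low for ST14 (92.1) and SPINT1 (84.8).

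Relative to the matriptase gene, both inhibitor genes were higher with cetuximab in SCC6. The log2 ratio of SPINT2 to ST14 was 1.61 ± 0.193 with PBS and 2.22 ± 0.295 with cetuximab (mean ± SD, 5 libraries each), a difference of 0.61 (exact permutation test, adjusted p = 0.0143). The log2 ratio of SPINT1 to ST14 was 0.11 ± 0.129 and 0.61 ± 0.244 in SCC6, a difference of 0.50 (exact permutation test, adjusted p = 0.0143). In SCC1 the SPINT1 ratio was -0.41 ± 0.0702 and -0.15 ± 0.0532, a difference of 0.26 (exact permutation test, adjusted p = 0.0143), while the SPINT2 ratio differed by -0.15 without passing (exact permutation test, adjusted p = 0.0918), and passed without cetuximab of day 1 (-0.19, exact permutation test, adjusted p = 0.0238). In SCC25 the differences were 0.20 for SPINT1 and 0.16 for SPINT2 (exact permutation tests, adjusted p = 0.0918 and 0.143). Neither passed there, and the ratios of PBS and cetuximab libraries overlapped. Without cetuximab of day 5 the SPINT1 ratio passed (0.24, exact permutation test, adjusted p = 0.0357), and without cetuximab of day 3 the SPINT2 difference was 0.08 (exact permutation test, adjusted p = 0.262). With day as a block the differences that passed, and that of SPINT1 in SCC25, had an adjusted p of 0.0804 (exact sign-flip test, with 2a again set against PBS of day 1), the lowest that 5 pairs gave over the 9 ratios.

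Whether the effect of cetuximab differed between days 4 to 5 and days 1 to 3 was tested in each line, since the members in SCC6 spread over time. No member was called in any line by edgeR, and neither was any other gene (0% of 19660, 19150 and 20740 genes tested in SCC1, SCC6 and SCC25). At an unadjusted p under 0.05 there were 1394, 5596 and 588 genes, and DESeq2 called 31, 2838 and 3 genes. In SCC6 3 members were under 0.05 unadjusted, SPINT1, MST1 and SPINT2. The later effect on SPINT1 exceeded the earlier by a log2 difference of 0.70 (SE 0.22, edgeR adjusted p = 0.0972), and DESeq2 called it (0.66, adjusted p = 0.0378). For MST1 the difference was 1.60 (SE 0.533, edgeR adjusted p = 0.102) and for SPINT2 0.50 (SE 0.202, edgeR adjusted p = 0.133). For MST1R the later fall was smaller by 0.97 (SE 0.443, edgeR unadjusted p = 0.0532, adjusted p = 0.177). The fit with no filter on low counts called it (0.99, edgeR adjusted p = 0.00433). Its daily log2 ratios were -1.44 (2a), -1.80 (2b) and -1.67 (day 3), then -0.81 and -0.63 on days 4 and 5. In SCC6 cetuximab of days 4 and 5 was alone on flow cell E, and PBS of those days was on D. A later effect of cetuximab and the flow cell therefore cannot be told apart in this line. In SCC25 they are partly confounded, as cetuximab of days 4 and 5 was on flow cell B and all PBS on A. Of the earlier cetuximab libraries there, only that of day 3 was on B. In SCC1 and SCC25 no member was under 0.05 unadjusted and DESeq2 called none.

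The slope over days 0 to 5 with PBS shows which members moved without the drug. In SCC6 5 of the 6 members tested fell with time, where 38.3% of all genes were called. MST1R fell most, by 0.43 per day on the log2 scale (SE 0.034, edgeR adjusted p = 0.000148), from 52.5 CPM on day 0 to 13.04 CPM on day 5, and held without any 1 of the 6 libraries. MST1 (-0.33 per day, SE 0.092, edgeR adjusted p = 0.0209), ST14 (-0.14, SE 0.038, edgeR adjusted p = 0.0194), SPINT1 (-0.11, SE 0.035, edgeR adjusted p = 0.0363) and SPINT2 (-0.10, SE 0.031, edgeR adjusted p = 0.0331) each lost the call without at least 1 library, and without day 0 only MST1R and ST14 remained called. The PBS libraries of days 0 and 1 in SCC6 were on flow cell C and those of days 2 to 5 on D, so the slope and the change of flow cell cannot be fully told apart. Within D, MST1R still went from 27.8 to 13.04 CPM, whereas MST1 was 0.589, 0.463, 0.372 and 0.623 CPM and SPINT2 456, 479, 514 and 440.3 CPM on days 2 to 5, with no steady fall. MET did not pass in SCC6 (0.05 per day, SE 0.037, edgeR adjusted p = 0.282). In SCC25 1 of 6 members was called against 13.7% of all genes: ST14 rose by 0.11 per day (SE 0.021, edgeR adjusted p = 0.00213), and by 0.07 without day 5, where it was not called (edgeR adjusted p = 0.0792). In SCC1 none of 6 was called by edgeR or DESeq2 against 3.95% of all genes, with 3 members under an unadjusted p of 0.05. The plot of levels by day shows the fall of MST1R in untreated SCC6.

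Other genes of the pathway came from lists of further activating proteases, of co-receptors and partner receptors, and of adaptors and receptor turnover. Of 12 proteases and regulators, 5 of the 6 that were tested were called in SCC1 (3 higher), 2 of 6 in SCC6 (1 higher) and 3 of 7 in SCC25 (2 higher), with median log2 fold changes of 0.55, -0.11 and -0.24. Of all genes tested 44.5%, 30.1% and 18.2% were called in SCC1, SCC6 and SCC25, with medians of 0.021, 0.004 and 0.006. PLAU, the gene for urokinase, fell in all 3 lines (log2 fold change -1.45 in SCC1, -1.71 in SCC6 and -0.295 in SCC25, edgeR adjusted p = 0.000171, 0.00145 and 0.0358), although with the flow cell as a covariate SCC25 was not called (-0.165, edgeR adjusted p = 0.36). PRSS8, the gene for prostasin, a partner protease of matriptase, rose in SCC1 (0.84, SE 0.136, edgeR adjusted p = 0.000423) and SCC25 (0.52, SE 0.125, edgeR adjusted p = 0.0146), the first of these at the threshold with a flow cell term (0.83, edgeR adjusted p = 0.0517). In SCC6 PRSS8 was not called (0.47, SE 0.261, edgeR adjusted p = 0.193). KLK5, a skin kallikrein, rose in SCC6 (1.40, SE 0.397, edgeR adjusted p = 0.0197), but not with the flow cell as a covariate (0.455, edgeR adjusted p = 0.247).

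Of 10 co-receptors and partner receptors, all tested, 8 were called in SCC1 (4 higher), 4 in SCC6 (1 higher) and 2 in SCC25 (1 higher), with medians of -0.11, -0.08 and -0.11, beside 44.5%, 30.1% and 18.2% of all genes called. CD44, a surface glycoprotein that serves MET as a co-receptor, fell in all 3 lines, to 0.5, 0.676 and 0.777 of the PBS level in SCC1, SCC6 and SCC25 (edgeR adjusted p = 2.23e-07, 0.0184 and 0.00247). ERBB3, an EGFR-family receptor that can pair with MET signalling, rose in SCC1 (0.89, SE 0.066, edgeR adjusted p = 7.65e-07) and SCC25 (0.49, SE 0.065, edgeR adjusted p = 0.000494) and fell in SCC6 (-0.44, SE 0.15, edgeR adjusted p = 0.0426), where a flow cell term ended the call (-0.33, edgeR adjusted p = 0.131). NRP1, the gene for neuropilin 1, fell in SCC1 (-2.67, SE 0.185, edgeR adjusted p = 1.7e-06) and SCC6 (-1.18, SE 0.176, edgeR adjusted p = 0.000544). EGFR, the target of cetuximab, rose in SCC1 from 577 to 637 CPM with PBS to 790.3 to 1010 CPM with cetuximab (log2 fold change 0.58, SE 0.073, edgeR adjusted p = 3.37e-05). It was not called in SCC6 (0.09, SE 0.086, edgeR adjusted p = 0.467). In SCC25 EGFR was not called either, at 1015 to 1050 CPM with PBS and 1068 to 1141 CPM with cetuximab. ERBB2 rose in SCC1 (0.52, SE 0.068, edgeR adjusted p = 4.83e-05) and SCC6 (0.71, SE 0.215, edgeR adjusted p = 0.0264).

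Of 18 adaptors and turnover genes, all tested, 13 were called in SCC1 (6 higher), 5 in SCC6 (3 higher) and 5 in SCC25 (2 higher), with medians of -0.07, -0.01 and 0.01, again beside 44.5%, 30.1% and 18.2% of all genes called. SH3KBP1, the gene for CIN85, an adaptor in receptor internalisation, fell in all 3 lines (-1.50, -0.64 and -0.36, edgeR adjusted p = 8.52e-07, 0.00268 and 0.00305). CBLB, a ubiquitin ligase that marks receptors for removal, rose in SCC1 (0.66, SE 0.097, edgeR adjusted p = 0.000117) and SCC6 (0.88, SE 0.149, edgeR adjusted p = 0.00121). PTPRJ, a phosphatase that acts on MET, also rose in both (0.63, SE 0.126 and 0.78, SE 0.161, edgeR adjusted p = 0.00115 and 0.00393). PLCG1, a signalling enzyme bound by activated receptors, fell in SCC1 (-0.29, SE 0.054, edgeR adjusted p = 0.000792) and rose in SCC6 (0.82, SE 0.168, edgeR adjusted p = 0.00379). With a flow cell term the SCC1 calls were lost for CBLB (0.39, edgeR adjusted p = 0.0665), PTPRJ (0.36, edgeR adjusted p = 0.227) and PLCG1 (-0.24, edgeR adjusted p = 0.0797).

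The genes most like each member in pattern were found from Pearson's r of log2(CPM + 0.1), centred on each line's mean, over the 30 libraries of days 1 to 5, among 8870 genes. The libraries share their treatment and flow cells, so r is a description with no test. MST1R was most like HARS (0.95), PCDH1 (0.94) and FAM83A (0.94). MET was most like PPFIBP1 (0.90), RRAS2 (0.82) and CDK5RAP2 (0.81). ST14 was most like NBEAL2 (0.87), RABGGTA (0.84) and SCO2 (0.83), SPINT1 like LRP5 (0.91), CBR1 (0.89) and MAN2B1 (0.89), and SPINT2 like PLOD1 (0.89), DAPK3 (0.88) and P4HB (0.87). No member was among the 3 genes most like another.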

How the data were processed

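Transcript levels were inferred by the authors with Salmon 0.8.2 (the submitters' processing notes also name hg19 and GRCh37) and imported with tximport. The values are estimated counts per gene symbol as the authors deposited them, not normalised between libraries, and 63.2% are whole numbers. The kit was stranded per the labels, while the annotation and the strand setting of the counting are not given.

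Counts were rounded and tested with edgeR 4.0.16 in R 4.3.3 (limma 3.58.1, DESeq2 1.42.0 as an alternative): filterByExpr, TMM, the robust quasi-likelihood F test and Benjamini-Hochberg adjustment over all genes tested, called at an adjusted p under 0.05. All tests were two-sided. The main edgeR fit was checked on simulated counts for cetuximab, periods and slope in SCC1, for SCC1 against SCC6 with PBS, and for the difference between lines. The other fits and the alternatives were not checked in this way. Ratios were tested by exact permutation of 5 against 5 libraries. The members and gene lists were chosen with earlier results of these data known. Of each list, at most 4 genes called in the most lines are named, where log2 CPM averaged 3 or more, besides EGFR as the target of cetuximab. Positions came from GENCODE on GRCh37, where 34694 symbols matched and 1398 more by an older symbol. PBS and cetuximab libraries of a line share a labelled day. After each treatment's mean was removed, the correlation of such pairs across genes was 0.04 to 0.44 in SCC1, 0.18 to 0.57 in SCC25 and -0.24 to 0.63 on days 3 to 5 in SCC6, so day was fitted as a block as an alternative. No libraries had identical counts. Other alternatives were DESeq2's size factors, no filter, each library left out, PBS of day 0 added, the flow cell as a covariate, removal of the GC trend (5 degrees of freedom) and the MST1 copies summed. Figures were drawn in Python with pandas, numpy and matplotlib.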

Additional observations from a re-analysis of the deposited data

Results flagged for a closer look

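The cetuximab-treated SCC25 library of day 3 lay far from the other 4 libraries of its group for 2 members. SPINT1 was 84.8 CPM there and 111 to 119 CPM in the others, and ST14 was 92.1 CPM there and 144 to 154 CPM in the others. Each gap was more than 0.71 of the group's whole range, the critical value for 5 libraries. By chance about 1 in 20 groups would be flagged in this way, and 34 groups were examined. That library had 37242988 counts, the lowest of its group.

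The change with cetuximab differed between the 3 lines for MET (edgeR adjusted p = 0.00183), SPINT2 (edgeR adjusted p = 0.0247) and MST1R (edgeR adjusted p = 0.0426), by the line-by-treatment terms. MET was higher in 5 of 5 cetuximab libraries of SCC6 than in the PBS set against them, and lower on 5 of 5 days in SCC25. In SCC6 this was PBS of the same day, except that 2a and 2b were set against the mean of PBS days 1 and 2. Against PBS of its labelled day 2 alone (379.5 CPM), 2a was barely higher (385.2 CPM). MST1R was lower in all 5 such comparisons in each line. The SPINT2 and MST1R calls were each lost without certain single libraries and with a flow cell term.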

How the results depend on the processing

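MST1R in SCC1 and SCC6 kept its direction and call under every alternative run. The MET difference between lines kept its call, and its direction was computed in the main fit only. With the flow cell as a covariate, 1 member was called in place of 3 in SCC1, 1 in place of 2 in SCC25 and 1 in place of 3 for the difference between lines. That covariate could not be fitted for the periods of SCC6. With DESeq2's size factors 1 in place of 2 was called in SCC6. Removal of the GC trend gave 4 in SCC25 (2123 genes higher and 3523 lower, against 1665 and 1809), and 5 with day as a block as well, where ST14 was turned to 0.095 from -0.002. Symbols with a GC value were 84.3%, 85.6% and 83.8% of those tested in SCC1, SCC6 and SCC25. In the periods of SCC6, DESeq2 called 1 member and the fit with no filter 4, in place of 0. The slope in SCC6 called 2 without day 0, and that in SCC25 called 2 with DESeq2 or with no filter. When each library was left out in turn, the members called ranged from 1 to 2 in SCC6, 1 to 4 in SCC25, 1 to 3 between lines, 0 to 1 for the periods of SCC6, and 0 to 2 (SCC1), 2 to 5 (SCC6) and 0 to 2 (SCC25) for the slopes. The ratio of SPINT1 to ST14 in SCC25 then ranged from 0.14 to 0.24, and that of SPINT2 to ST14 in SCC1 from -0.19 to -0.10. With day as a block (sign flips within days, where p cannot go below 0.0625), the ratio differences of -1.03 and -1.63 (MST1R to MET, SCC1 and SCC6), 0.26 and 0.50 (SPINT1 to ST14) and 0.61 (SPINT2 to ST14, SCC6) had an adjusted p of 0.0804. In the edgeR fits, the block alone changed the call of MET and ST14 in SCC6 and of MST1R between SCC6 and SCC25 with PBS. Over all genes, the flow cell term gave 4171 calls in SCC1 (8005 without it), 1442 in SCC25 (3474) and 3046 between lines (5563), and 421 in place of 0 for the periods of SCC25. GC removal gave 5646 in SCC25, and 7329 with the block. For the periods with no filter there were 24 in SCC1 and 3366 in SCC6. Slopes called 110 (645), 2077 (5728) and 1249 (2362) genes in SCC1, SCC6 and SCC25 without day 0, and 1528 in SCC1 with DESeq2. Leaving out 1 library moved the count to as few as 2196 in SCC25 and, for the periods of SCC6, as many as 1583. The cause of these changes was not tested.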
